A study of Mus musculus with 4 samples.

Results

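The genes described here are 10 transcription factors that direct the fate of retinal cells, *Crx*, *Nrl*, *Nr2e3*, *Otx2*, *Neurod1*, *Rax*, *Rorb*, *Esrrb*, *Lhx2* and *Six6*, as they were measured in lenses of mice with and without the calcium-binding protein S100A4. They were chosen by name, and all 10 were found by symbol among the 14924 genes of the deposited expression table. The paper lists all 10 among the retinal genes that were upregulated in the S100A4-/- lenses. RNA-seq was performed on whole lenses of 1-month-old mice, with 2 libraries of S100A4-/- mice, which carry a constitutive deletion of *S100a4* on the C57BL/6J background, and 2 libraries of wild type (WT) mice. Each library was made from 6 to 12 pooled lenses, and the sex of the animals in each pool is not stated. The libraries held 81602367 and 74108017 reads assigned to genes for S100A4-/- replicates 1 and 2, and 70253985 and 68038158 reads for WT replicates 1 and 2. A normalized value below is the number of reads counted on a gene divided by the size factor of the library, so that 1 read was worth 0.856, 1.01, 1.04 and 1.09 in these 4 libraries, in the same order.

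The mature lens is built of fiber cells packed with crystallins and holds no neurons, and photoreceptors belong to the retina. Rax, Lhx2 and Six6 belong to the regulators that specify the eye field and the early retina. Otx2 then directs retinal precursors toward photoreceptors, and it acts upstream of Crx, a related homeodomain factor that switches on photoreceptor genes. Nrl and its target Nr2e3 set the rod fate and repress cone genes, while Neurod1, Rorb and Esrrb are required for the differentiation or survival of photoreceptors.

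The targeted gene was read first as a check of the labels. *S100a4* (chromosome 3, 90603771 to 90606045 in the mouse build GRCm38) had 17 and 18 reads in S100A4-/- replicates 1 and 2, whereas WT replicates 1 and 2 held 13810 and 13138. It fell by 9.70 on the log2 scale, and each library was in accord with its label. The 10 most abundant genes, which in replicate 1 of both groups were crystallins of the lens apart from *Gm42418*, held 60.1% to 61.7% of the reads of each library, and the crystallin *Cryaa* alone had 13953146 and 13112463 reads in S100A4-/- lenses, and 12510561 and 12177689 reads in WT lenses. Of 12 genes of lens fibers, among them *Cryaa* and the water channel *Mip*, none passed the threshold in either direction (limma, at least 2-fold and a Benjamini-Hochberg adjusted p of at most 0.05), and their median log2 fold change was -0.08, against -0.01 for all 14780 genes tested. At an unadjusted p under 0.05, 2 of the 12 were lower with limma (6.71% of all genes tested), 5 with edgeR (6.34%) and 5 with DESeq2 (3.23%), and these tools called none at 2-fold.

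Promoter sequence is shown for 4 of the regulators because these genes act on one another and their factors bind short, known DNA words. RefSeq windows of 300 bases, from 250 bases before to 50 after an annotated start (GRCm38.p6), were matched for 9 of the 10 genes and gave 15 windows. Capitals mark the letters searched for, on either strand: TAATCC, the word bound by Crx and Otx2, TAATTA, a word of other homeodomain factors that shares TAAT with the first, TGCTGA, a word of the Maf family to which Nrl belongs, and CAGATG, an E-box of the kind bound by Neurod1. The nuclear receptor word AGGTCA was searched for as well. The windows of *Crx* (chr7:15879906-15880205, minus strand), *Nrl* (chr14:55524203-55524502, minus strand), the *Otx2* start with the most matches (chr14:48665060-48665359, minus strand) and *Neurod1* (chr2:79456587-79456886, minus strand) read as follows.
Crx: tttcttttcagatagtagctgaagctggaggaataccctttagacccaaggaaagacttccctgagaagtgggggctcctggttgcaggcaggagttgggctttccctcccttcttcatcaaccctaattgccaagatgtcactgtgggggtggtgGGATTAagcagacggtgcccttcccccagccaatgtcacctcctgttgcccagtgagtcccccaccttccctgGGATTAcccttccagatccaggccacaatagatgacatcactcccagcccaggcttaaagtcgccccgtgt
Nrl: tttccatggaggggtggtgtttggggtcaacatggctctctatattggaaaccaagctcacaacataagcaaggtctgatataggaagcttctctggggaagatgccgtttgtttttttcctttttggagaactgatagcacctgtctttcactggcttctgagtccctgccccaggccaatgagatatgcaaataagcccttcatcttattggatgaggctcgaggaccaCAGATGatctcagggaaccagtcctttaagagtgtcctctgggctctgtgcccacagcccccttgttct
Otx2: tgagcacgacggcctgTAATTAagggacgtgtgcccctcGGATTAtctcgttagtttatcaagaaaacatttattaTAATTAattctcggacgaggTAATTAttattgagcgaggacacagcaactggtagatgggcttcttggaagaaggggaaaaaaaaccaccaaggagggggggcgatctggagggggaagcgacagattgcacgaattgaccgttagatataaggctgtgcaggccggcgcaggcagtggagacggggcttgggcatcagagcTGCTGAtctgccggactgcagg
Neurod1: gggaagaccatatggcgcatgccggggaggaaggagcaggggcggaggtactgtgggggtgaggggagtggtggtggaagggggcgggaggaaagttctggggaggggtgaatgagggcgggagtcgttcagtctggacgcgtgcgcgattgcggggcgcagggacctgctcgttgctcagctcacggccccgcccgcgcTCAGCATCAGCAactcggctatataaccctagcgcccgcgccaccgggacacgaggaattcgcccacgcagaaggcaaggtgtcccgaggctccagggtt

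The *Crx* window held TAATCC at 2 places, both read on the opposite strand as GGATTA, with first bases 94 and 21 bases before the start. Among all 32851 windows of the same length, 7.06% held this word and 0.359% held it at 2 or more places. The *Otx2* window held TAATCC at 1 place and TAATTA at 3 places. TAATTA was found in 5.29% of all windows, and 0.435% held it at 2 or more places. The *Otx2* window was picked for its matches, so these shares do not measure how rare it is. Over the 15 windows, TAATCC was present in 2, from 2 genes, and TAATTA in 2, both of *Otx2*. The *Neurod1* window held TGCTGA, read as TCAGCA, at 2 places that began 50 and 44 bases before the start. Among all windows, 2.36% held this word at 2 or more places. It was present in 5 of the 15 windows, from 4 genes, against 19.5% of all windows. *Nrl* held a single CAGATG, which began 19 bases before its start. This E-box was present in 3 of the 15 windows and in 17.2% of all windows, and AGGTCA was in none of the 15 and in 16.3% of all windows. CpG content differed widely among the regulators, from 34 and 29 CpG in the windows of *Lhx2* and 26 in that of *Neurod1* to 3 in *Crx* and 2 in *Nrl*, with a median of 7 over all windows. At least 20 CpG were present in 5 of the 15 windows, against 26.5% of all windows and 51.1% of the windows of genes tested here. These matches describe the letters of the windows, and binding was not measured.

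All 10 regulators rose in S100A4-/- lenses, by 1.46 to 2.41 on the log2 scale, whereas 3.65% of all genes tested (539 of 14780) passed the same threshold in this direction and 0.0744% (11 genes) passed it in the other (limma on log2(value + 1), at least 2-fold and a Benjamini-Hochberg adjusted p of at most 0.05). Because the paper had already listed all 10 as upregulated from these same libraries, the count of 10 was foreseeable. It is not independent support, and the same holds for the other tests below. The median log2 fold change of the 10 genes was 2.02. For each of the 10, both S100A4-/- values lay above both WT values, an order that 23.7% of all genes tested showed. Reads were present for every regulator in every library, and over the 10 genes they summed to 2378 and 1904 in S100A4-/- lenses but to 492 and 444 in WT lenses. As shares of the library these sums were 29.1 and 25.7 CPM for S100A4-/-, against 7.0 and 6.53 CPM for WT. The count tests on the recovered reads also called all 10 genes, edgeR's quasi-likelihood test where it called 3.74% of all genes higher and DESeq2's Wald test where it called 2.85%. limma's treat test against 2-fold called 7 of them, against 1.14% of all genes, and limma without a trend of variance with expression called 5, against 1.18%. Since whole lenses were measured in bulk, a change in the number of cells of a type and a change in the RNA per cell cannot be told apart.

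**Figure D1:**
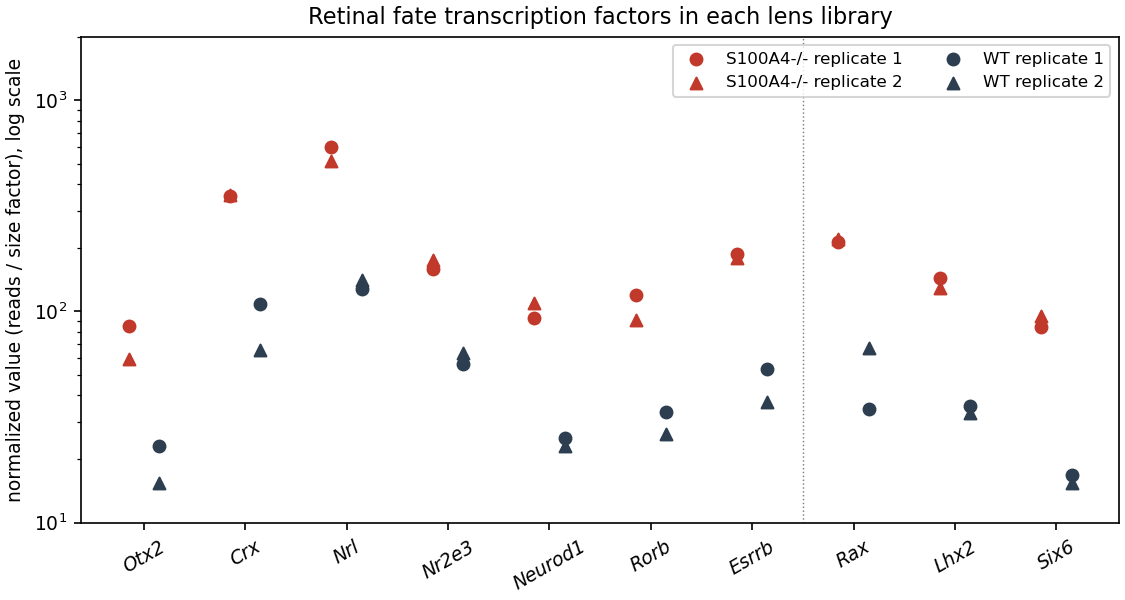
Normalized value (reads divided by the size factor, log scale) of each of the 10 retinal fate transcription factors in each of the 4 lens libraries, with photoreceptor regulators to the left of the dotted line and eye field regulators to the right. For every gene both S100A4-/- points lie above both WT points, and the WT points lie farthest apart for Rax.

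*Otx2* (chromosome 14, 48657677 to 48673819), the homeodomain factor at the head of the photoreceptor program, had normalized values of 85.6 and 59.8 in S100A4-/- and 23.0 and 15.3 in WT. The groups did not overlap, but the S100A4-/- libraries differed from each other by 1.43 times, the widest gap of any regulator in that group. The log2 fold change was 1.88 (SE 0.34, limma, Benjamini-Hochberg adjusted p = 1.41e-04), the least certain of the 10. Without S100A4-/- replicate 1 it was 1.62 and no longer passed (limma, Benjamini-Hochberg adjusted p = 0.161), and without S100A4-/- replicate 2 it was 2.13 (limma, Benjamini-Hochberg adjusted p = 0.0517). Rods and cones both depend on *Crx* (chromosome 7, 15865947 to 15879968), which activates the genes of the phototransduction cascade. It had values of 351 and 355 in S100A4-/- and 109 and 65.7 in WT. The S100A4-/- libraries nearly coincided while WT replicate 2 was well below WT replicate 1, and the log2 fold change was 2.05 (SE 0.18, limma, Benjamini-Hochberg adjusted p = 1.35e-11).

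*Nrl* (chromosome 14, 55518978 to 55524981) encodes the leucine zipper factor that turns a photoreceptor precursor into a rod. Its normalized values were 601 and 516 in S100A4-/- against 127 and 140 in WT, with means of 559 ± 60.3 (SD, n = 2) and 134 ± 9.02 (SD, n = 2). The difference between groups was several times larger than that within either group, and the log2 fold change of 2.05 (SE 0.13) had the smallest p of the 10 (limma, Benjamini-Hochberg adjusted p = 1.62e-15). *Nr2e3* (chromosome 9, 59942771 to 59960659), the orphan nuclear receptor downstream of Nrl that represses cone genes in rods, had values of 158 and 175 in S100A4-/- and 56.4 and 63.5 in WT. Its replicates were close in both groups. Its log2 fold change of 1.46 (SE 0.20, limma, Benjamini-Hochberg adjusted p = 1.16e-06) was the lowest of the 10. The lower of its S100A4-/- values was 2.49 times the higher of its WT values, the narrowest gap between groups among the regulators. The paper lists fold changes of 2.0 for both *Lhx2* and *Esrrb*, and of 2.8 for *Nr2e3*. Here the ratio of group means of *Nr2e3* was 2.78, near its listed value. *Lhx2* and *Esrrb* had ratios of group means of 3.99 and 4.05, and log2 fold changes of 1.96 and 2.01. For these genes the listed value lies near the log2 fold change and not the ratio, so the listed values may not share 1 scale. Their order was therefore not compared with the order here.

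*Neurod1* (chromosome 2, 79452521 to 79456751), a basic helix-loop-helix factor that maintains photoreceptors, had values of 93.3 and 109 in S100A4-/- and 25.1 and 23.0 in WT. The WT libraries held 24 and 21 reads of the gene, so that counting error was sizeable there, yet the replicates were close, and the log2 fold change was 2.03 (SE 0.29, limma, Benjamini-Hochberg adjusted p = 1.70e-06). *Rorb* (chromosome 19, 18930605 to 19111196), a nuclear receptor that acts before Nrl in the making of rods, had values of 119 and 91.2 in S100A4-/- and 33.4 and 26.3 in WT. Replicate 1 was the higher of both groups, and the groups did not overlap. The log2 fold change was 1.78 (SE 0.27, limma, Benjamini-Hochberg adjusted p = 9.26e-06), and without S100A4-/- replicate 1 it was 1.59 and no longer passed (limma, Benjamini-Hochberg adjusted p = 0.0929). *Esrrb* (chromosome 12, 86361117 to 86521628), a nuclear receptor on which rod survival depends, had values of 187 and 179 in S100A4-/- and 53.3 and 37.2 in WT, a log2 fold change of 2.01 (SE 0.22, limma, Benjamini-Hochberg adjusted p = 5.96e-09).

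Among the regulators of the eye field, *Rax* (chromosome 18, 65928277 to 65939787), a homeodomain factor needed for the formation of the optic vesicle, had values of 213 and 220 in S100A4-/- and 34.5 and 66.8 in WT. The WT libraries differed by 1.94 times, the widest gap of any regulator in that group, whereas the S100A4-/- libraries were alike, and the log2 fold change was 2.15 (SE 0.23, limma, Benjamini-Hochberg adjusted p = 2.94e-09). *Lhx2* (chromosome 2, 38339281 to 38369733), a LIM homeodomain factor of the optic cup that persists in Müller glia, had values of 144 and 129 in S100A4-/- and 35.5 and 32.8 in WT. Its replicates were close in both groups, and the log2 fold change was 1.96 (SE 0.24, limma, Benjamini-Hochberg adjusted p = 1.18e-07). *Six6* (chromosome 12, 72939892 to 72944899), a homeodomain factor that sustains the proliferation of retinal progenitors, had values of 83.9 and 95.3 in S100A4-/- and 16.7 and 15.3 in WT. It was among the genes with the fewest reads in WT, 16 and 14, and had the highest log2 fold change of the 10, 2.41 (SE 0.33, limma, Benjamini-Hochberg adjusted p = 6.80e-07).

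Replicates of the regulators did not share 1 direction. In WT, 7 of the genes were higher in replicate 1 and 3 (*Nrl*, *Nr2e3* and *Rax*) in replicate 2, and in S100A4-/- 5 were higher in each. The median ratio between replicates was 1.13 in S100A4-/- and 1.20 in WT. Some of the genes overlap other annotated genes, and whether reads were counted by strand is not stated in the sources used here. *Rax* shares 1604 exonic bases with the antisense gene *Raxos1*, which was itself at 16, 10, 2 and 5 reads in S100A4-/- replicates 1 and 2 and WT replicates 1 and 2. *Six6* shares 192 exonic bases with the antisense gene *4930447C04Rik* (19, 19, 5 and 1 reads), and *Neurod1* shares 201 with *Cerkl* on the same strand (12, 18, 7 and 5 reads). Exons of *Otx2*, *Nr2e3* and *Neurod1* overlap short stretches of noncoding genes that were not analysed here, and *Crx*, *Nrl*, *Rorb* and *Esrrb* overlap no other annotated gene.

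To order the levels of the regulators, normalized values were divided by the length of all annotated exons of each gene, over all its transcripts. Which transcripts were expressed was not measured, so the order depends on this length. Before the division *Nrl* was above *Crx*, with means of 559 against 353 in S100A4-/- and 134 against 87.1 in WT. In S100A4-/- lenses the order of mean normalized values per kb of exon was *Crx* (112), *Nrl* (98.2), *Nr2e3* (49.5), *Neurod1* (37.2), *Rax* (37.0), *Lhx2* (31.0), *Esrrb* (30.3), *Six6* (22.3), *Otx2* (17.2) and *Rorb* (9.49). The neighbors *Neurod1* and *Rax*, and *Lhx2* and *Esrrb*, overlapped between libraries and were not separated. In WT lenses *Crx* was at 27.6 per kb, *Nrl* at 23.5, *Nr2e3* at 17.8, *Neurod1* at 8.80, *Rax* at 8.66, *Lhx2* at 7.78, *Esrrb* at 7.48, *Otx2* at 4.54, *Six6* at 4.0 and *Rorb* at 2.69. The order was thus the same apart from *Otx2* and *Six6*, whose WT values overlapped, as did those of *Crx* and *Nrl* and of the neighbors from *Neurod1* to *Esrrb*.

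The regulators were next set against 24 structural genes of the rod, those of the phototransduction cascade and the outer segment, in the same libraries. Of these, 22 rose past the threshold (limma, against 3.65% of all genes tested), with a median log2 fold change of 2.02, the same as that of the regulators at this precision. *Gnat1*, the rod transducin subunit and the most abundant of them, had normalized values of 3339 and 3327 in S100A4-/- and 736 and 782 in WT, a log2 fold change of 2.13. *Rp1*, a protein of the photoreceptor axoneme, had the highest log2 fold change of the list, 2.50. *Cngb1*, a subunit of the rod channel, at 0.96, and *Reep6*, a protein of membrane traffic in rods, at 0.87, were higher in both S100A4-/- libraries but did not reach 2-fold.

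**Figure D2:**
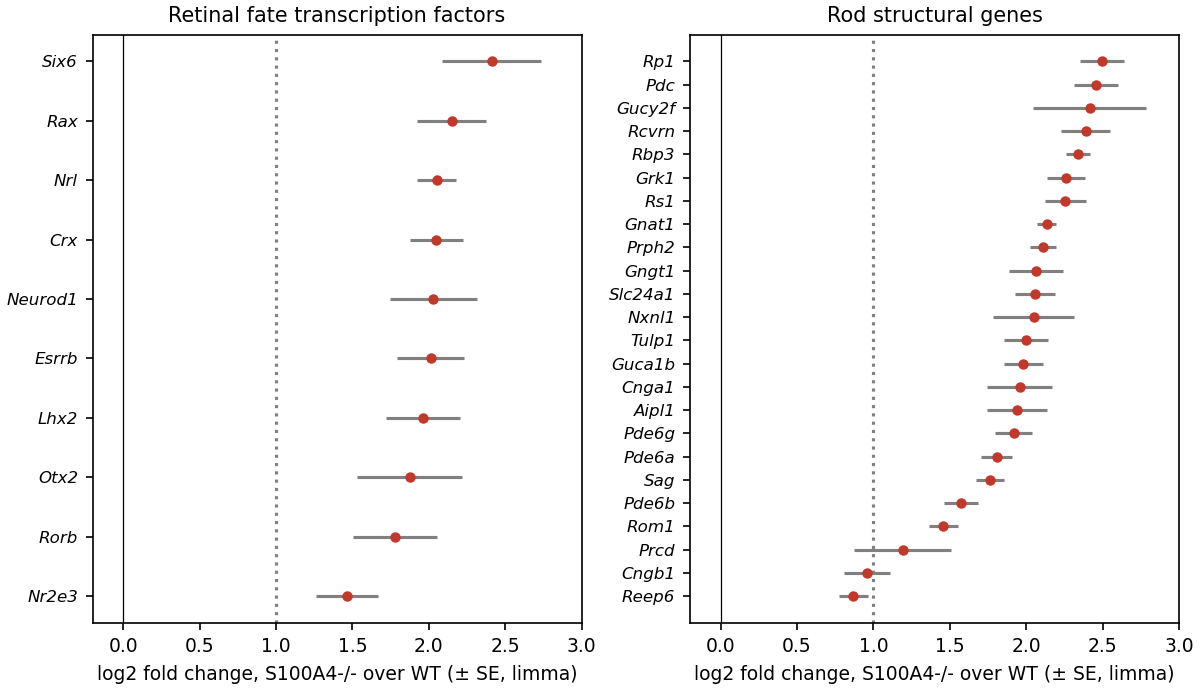
Log2 fold change of S100A4-/- over WT (limma, bars ± SE) for the 10 retinal fate transcription factors on the left and 24 rod structural genes on the right, with the dotted line at 2-fold. The regulators range from 1.46 for Nr2e3 to 2.41 for Six6, and the rod genes from 0.87 for Reep6 to 2.50 for Rp1.

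Per kb of exon, the summed level of the 10 regulators was 450 and 438 in S100A4-/- and 118 and 108 in WT. The summed level of the 24 rod genes on the same scale was 5032 and 4952 in S100A4-/- and 1308 and 1364 in WT. The regulators therefore amounted to 8.94% and 8.84% of the rod sum in S100A4-/- lenses, and to 9.03% and 7.89% in WT lenses. The means of 8.89% ± 0.073 (SD, n = 2) and 8.46% ± 0.807 (SD, n = 2) differed by 0.434 percentage points, and the S100A4-/- values fell between the WT values (two-sided exact permutation test, p = 1, where the smallest p that this design allows is 0.333). On the log2 scale, the mean of the regulators minus the mean of the rod genes was -1.59 and -1.52 in S100A4-/- and -1.52 and -1.68 in WT. The groups overlapped and differed by 0.04 (two-sided exact permutation test, p = 1), and with so few libraries this does not show that the ratio was equal.

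**Figure D3:**
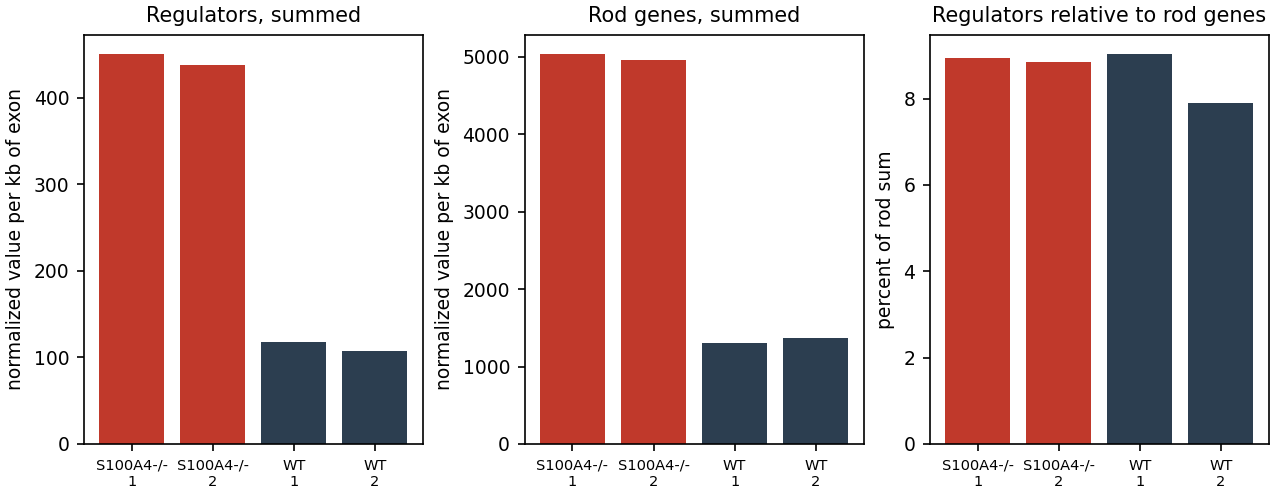
Summed normalized value per kb of exon of the 10 regulators (left) and of the 24 rod structural genes (middle), and the first as a percent of the second (right), in each of the 4 libraries. Both sums are higher in both S100A4-/- libraries, whereas the percent lies between 7.89 and 9.03 in all 4 libraries with the groups overlapping.

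Each regulator was also tested for a change that differed from that of the rod genes, by fitting its log2 value minus the library's median over the rod genes. That median itself rose by 2.13 between groups, so 93.4% of all genes tested differed from it (limma, Benjamini-Hochberg adjusted p of at most 0.05). Of the 10 regulators, 1 differed from it. *Nr2e3* rose by less than the rod median, with a difference of -0.67 (SE 0.23, limma, Benjamini-Hochberg adjusted p = 0.00371). Without S100A4-/- replicate 1 the difference was -0.49 (limma, Benjamini-Hochberg adjusted p = 0.0915), and without WT replicate 2 it was -0.56 (limma, Benjamini-Hochberg adjusted p = 0.0575), so the call needed both libraries. The other regulators had differences from -0.35 for *Rorb* to 0.28 for *Six6*, of which *Crx* and *Nrl* were both at -0.08, and none passed. With each library left out in turn these differences moved widely, from -0.48 to 0.52 for *Rax*, -0.41 to 0.24 for *Crx*, -0.50 to -0.01 for *Otx2* and 0.08 to 0.47 for *Six6*, and again none of these 9 passed. Set against the mean of the rod genes instead of their median, *Nr2e3* differed by -0.47 (limma, Benjamini-Hochberg adjusted p = 0.0286) and no other regulator passed. With this reference the sign turned for *Crx* (0.11), *Nrl* (0.12), *Neurod1* (0.09), *Esrrb* (0.08) and *Lhx2* (0.03). It did not turn for *Otx2*, *Rorb*, *Rax* and *Six6*. Among the rod genes themselves, 6 of 24 differed from their own median, all of them lower: *Pde6b*, *Cngb1*, *Sag*, *Rom1*, *Reep6* and *Prcd*.

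Other regulators of the retina, not all of them transcription factors, were examined as a list, some of whose genes had hardly any reads. From a list of 37 further regulators of retinal cell fate, 29 were analysed here. *Vsx1*, *Pou4f2*, *Atoh7*, *Onecut1*, *Foxn4*, *Ptf1a*, *Neurog2* and *Barhl2* were not among the genes with values. The authors had dropped genes that reached 10 reads in no library. Of the 29, 28 were tested. Of these, 12 rose, 0 fell and 16 did not pass (limma, against 3.65% of all genes tested higher and 0.0744% lower), and their median log2 fold change was 1.18. edgeR called 13 of them higher (3.74% of all genes) and DESeq2 8 (2.85% of all genes), each called 0 lower, and none was lower at an unadjusted p under 0.05 with any of these tools. The 12 were *Otx1*, *Mab21l2*, *Samd7*, *Samd11*, *Mef2c*, *Lhx4*, *Bhlhe22*, *Tfap2b*, *Neurod4*, *Tbx2*, *Nr2f1* and *Nr2f2*, and 7 of them had at least 10 reads in both WT libraries. *Mef2c*, *Lhx4*, *Bhlhe22* and *Neurod4* reached the filter value of 10 only in S100A4-/- libraries, so these 4 entered the test through the group where they are higher, as did 112 of the 539 genes that rose over all genes tested and none of the 10 regulators. *Mab21l2*, needed for the growth of the optic cup, had normalized values of 243 and 276 in S100A4-/- and 85.6 and 67.9 in WT (log2 fold change 1.75). *Samd11*, a Polycomb-associated protein of rods, had values of 143 and 107 against 29.2 and 46.0 (log2 fold change 1.73). Both genes had groups that did not overlap.

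Several of the 12 are known for tissues of the eye beside the photoreceptors. *Tbx2*, a T-box factor of the dorsal optic cup, had normalized values of 104 and 99.3 in S100A4-/- and 24.0 and 30.7 in WT (log2 fold change 1.87). *Otx1*, a relative of Otx2 expressed in the ciliary region, was at 90.8 and 81.1 against 10.4 and 24.1 (log2 fold change 2.36). The nuclear receptors *Nr2f1* and *Nr2f2*, which pattern the optic cup, were at 106 and 76.0 against 20.9 and 38.3, and at 69.4 and 77.0 against 32.4 and 28.5, with log2 fold changes of 1.63 and 1.24. With S100A4-/- replicate 1 left out, 1 gene of the list passed, and with S100A4-/- replicate 2 left out, 3 passed, in fits where the share of all genes tested that rose was 1.14% and 1.42%.

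Among the regulators that did not pass, *Sox2*, a progenitor factor and the most abundant of the list, had normalized values of 2407 and 2328 in S100A4-/- and 2442 and 2402 in WT, with overlapping groups and a log2 fold change of -0.03. *Prdm13*, a factor of amacrine cells, had 15 and 7 reads in S100A4-/- lenses but 0 in both WT libraries, at least 3.11-fold higher than the value of 3 reads that a count of 0 allows, and did not pass (limma, Benjamini-Hochberg adjusted p = 0.0873). Over its alternatives the adjusted p of *Prdm13* ran from 0.0198 with edgeR, the only one with which it passed, to 1 with limma's treat test. Floors of this kind cover counting error only. Of 6 regulators of lens development, *Foxe3*, *Prox1*, *Sox1*, *Maf*, *Hsf4* and *Pitx3*, none passed in either direction with limma, edgeR or DESeq2, 1 was lower at an unadjusted p under 0.05 with each (6.71%, 6.34% and 3.23% of all genes tested), and their log2 fold changes ran from -0.12 for *Prox1* to 0.01 for *Sox1*. *Maf*, of the same family as Nrl, was the most abundant of the 6 and had a log2 fold change of -0.05.

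**Figure D4:**
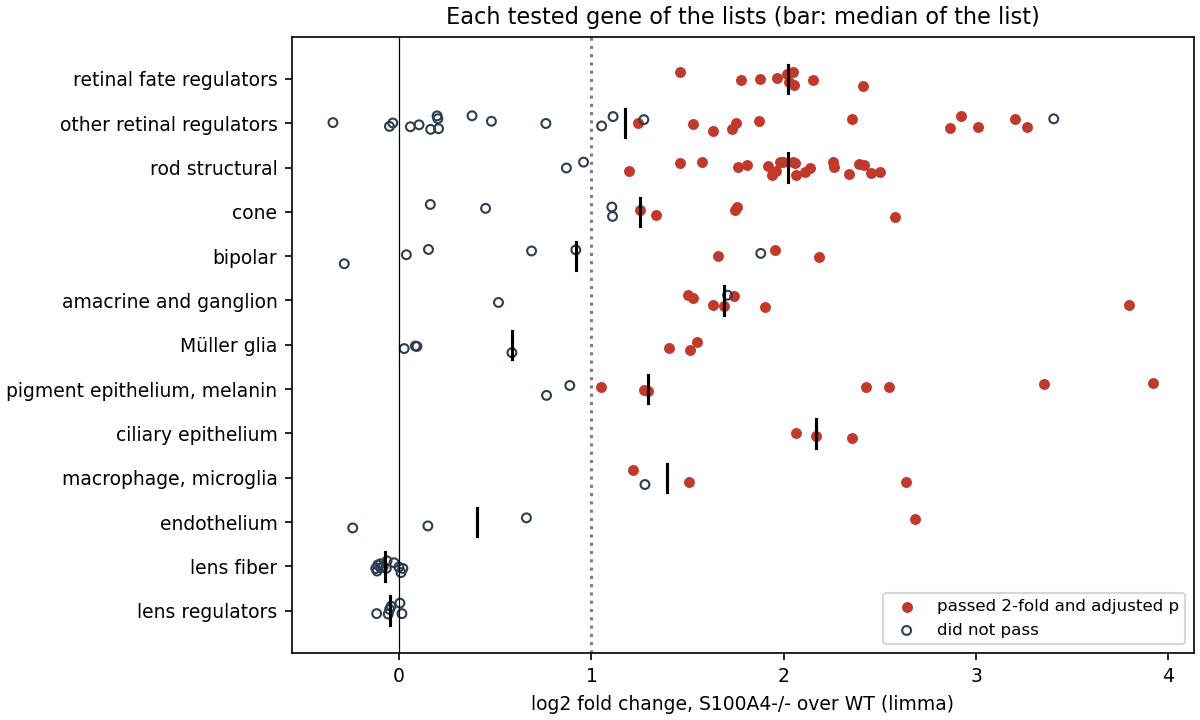
Log2 fold change of S100A4-/- over WT (limma) for each tested gene of 13 lists of regulators and cell type markers; filled points passed 2-fold and the adjusted p, open points did not, vertical bars are medians and the dotted line marks 2-fold. The retinal fate regulators and rod genes have medians of 2.02, the lens lists lie at or below 0.02, and fitted values of genes with hardly any reads in WT depend on the pseudocount.

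Markers of other cell types of the eye were read in the same libraries, and each list held genes that passed and, apart from the ciliary list, genes that did not. The counts that follow stand against 3.65% of all genes tested that rose (limma). Of 9 cone genes, 5 rose, and the list summed to 319 and 340 in S100A4-/- and 139 and 141 in WT, with the short-wavelength opsin *Opn1sw* its most abundant gene. Of 9 genes of bipolar cells, 3 rose, and the sums were 4181 and 3881 against 3287 and 3145. Their most abundant gene, *Prkca*, a kinase of rod bipolar cells, was at 1444 and 1397 against 1393 and 1374 (log2 fold change 0.04) and did not pass, and *Pcp2*, a Purkinje cell protein also found in bipolar cells, passed narrowly (limma, Benjamini-Hochberg adjusted p = 0.0479) and did not pass with edgeR or DESeq2. *Cabp5*, a calcium-binding protein, had the lowest log2 fold change of the list, -0.29, and did not pass. Amacrine and ganglion cell genes rose in 7 of 9 cases, with sums of 1220 and 1278 against 398 and 420. Their most abundant gene was the glycine transporter *Slc6a9*, and *Gad2*, which makes the transmitter GABA, had 28 and 15 reads in S100A4-/- but 0 and 1 in WT, the only gene of these marker lists that rose with a WT library at 0 reads. For Müller glia 3 of 7 genes rose, and *Glul*, the glutamine synthetase of these cells, was at 5387 and 5421 against 1779 and 1923, while *Dkk3*, the most abundant gene of the list, had a log2 fold change of 0.03.

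Genes of nonneural eye tissues were listed as well. Of those listed, *Best1* of pigment epithelium, *Aif1* and *Ptprc* of macrophages and *Emcn* of endothelium were not among the genes with values. They are left out of the counts that follow. Of 9 genes of pigment epithelium and melanin synthesis, 7 rose, and the list summed to 1843 and 1846 in S100A4-/- and 491 and 616 in WT. *Dct*, a melanin enzyme, had the highest log2 fold change of the list at 3.92, *Ttr*, the thyroxine carrier, was the most abundant, and *Rpe65*, the visual cycle isomerase that defines retinal pigment epithelium, had a log2 fold change of 0.77 and did not pass. All 3 genes listed for ciliary epithelium rose. The most abundant, *Best2*, an anion channel of the nonpigmented ciliary epithelium, had values of 455 and 510 in S100A4-/- and 100 and 113 in WT. This list, which also holds *Otx1*, summed to 824 and 835 against 164 and 208. Macrophage and microglia genes rose in 3 of 4 cases, with sums of 228 and 191 against 79.4 and 65.7 and *Csf1r*, a growth factor receptor of these cells, the most abundant. Of 4 endothelial genes 1 rose, *Kdr*, a receptor of vascular growth factor, and the sums were 158 and 165 against 86.7 and 114. *Tek*, an angiopoietin receptor and the most abundant of the 4, was at 46.2 and 44.6 against 49.1 and 59.1 (log2 fold change -0.24) and did not pass.

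The ratio of the mean sums, S100A4-/- over WT, was 4.46 for ciliary epithelium, 3.33 for pigment epithelium and melanin, 3.05 for amacrine and ganglion cells, 2.88 for macrophages and microglia, 2.35 for cones, 1.61 for endothelium, 1.25 for bipolar cells and 1.07 for Müller glia. The most abundant gene weighed heavily on some of these sums, and without it the ratio was 1.73 for Müller glia (without *Dkk3*), 2.52 for endothelium (without *Tek*), 1.42 for bipolar cells (without *Prkca*) and 4.40 for pigment epithelium and melanin (without *Ttr*). Median log2 fold changes were 2.17 for the ciliary list, 1.69 for amacrine and ganglion cells, 1.39 for macrophages and microglia, 1.29 for pigment epithelium and melanin, 1.25 for cones, 0.92 for bipolar cells, 0.59 for Müller glia and 0.41 for endothelium, against -0.01 for all genes tested. The lists were counted again with each library left out in turn, an alternative added after seeing the data. Over all genes tested, the share that rose was 1.14% without S100A4-/- replicate 1 and 1.42% without S100A4-/- replicate 2, against 3.65% with all libraries, so calls became fewer in general. Without S100A4-/- replicate 1, and without S100A4-/- replicate 2, the number of genes that rose was 0 and 0 for cones, 0 and 0 for macrophages and microglia, and 1 and 1 for amacrine and ganglion cells, where *Gad2* was lost both times. It was 0 and 2 for bipolar cells, 2 and 3 for pigment epithelium and melanin, 2 and 2 for the ciliary list, 0 and 1 for endothelium, and 3 and 3 for Müller glia. Without WT replicate 1, and without WT replicate 2, it was 4 and 3 for cones, 3 and 2 for bipolar cells and within 1 of the full count for the other lists. In the fits without WT replicate 1 or WT replicate 2, the share of all genes tested that rose stayed close to 3.65%. Of the marker genes that rose, *Gngt2*, *Gad2*, *Mlana* and *Kdr* reached the filter value of 10 only in S100A4-/- libraries. Of the genes of the marker lists that had values, none was without a read in an S100A4-/- library. The part of these cell types in the rise of the retinal fate regulators was not tested.

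Genes with a pattern most like that of the regulators were sought among 11331 genes, those outside the 10 regulators whose mean value was 50 or more. Likeness was the Euclidean distance, over the 4 libraries, between a gene's centered log2 values and the mean of those of the 10 regulators, with a median of 2.00 over the genes ranked. The nearest were *Pde6g*, a subunit of the rod phosphodiesterase, at 0.101, and *Syp*, the synaptic vesicle protein synaptophysin, at 0.110. They were followed by *Il33*, a cytokine, at 0.119, *Slc24a1*, the rod cation exchanger, at 0.128, and *Bmp2*, a secreted growth factor, at 0.136. *Minar2* (0.142), *Rhoj* (0.147) and *Guca1b*, an activator of guanylate cyclase in photoreceptors (0.189), were also among the nearest 10. *Pde6g* had normalized values of 553 and 570 in S100A4-/- and 153 and 142 in WT, and *Il33* had 505 and 495 against 145 and 126. Of the regulators themselves, *Lhx2* was the closest to their mean, at 0.0646, and *Rax*, with its uneven WT libraries, the farthest, at 0.771.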

How the data were processed

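RNA of 4 libraries of pooled mouse lenses was sequenced single-end from a stranded mRNA kit. Per the paper's methods, the authors used Trim Galore for trimming, STAR for alignment to GRCm38 and HTSeq for counting reads that mapped to a single locus, dropped genes that reached 10 reads in no library, and normalized with DESeq2. Versions and the strand setting of the counting are not given in the sources used here. The deposited signal values are the counts of each gene after division by the size factor of its library, with no correction for length. All values (100%) were whole multiples of 1 read, within 0.05, and reads were recovered by division. Median chi-square per gene between replicates was 2.03 for S100A4-/- and 1.09 for WT, against 0.455 from sampling noise alone, so no library was taken for a second deposit of another. The notes on the series call them biological repeats. No column was left without a sample (0 columns).

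limma 3.58.1 (R 4.3.3, variance trend) was fitted to log2(value + 1) for the 14780 genes that reached a value of 10 in 1 or more libraries (144 did not). The 2 groups were compared with no covariate, and genes passed at 2-fold or more with a Benjamini-Hochberg adjusted p of at most 0.05 over all genes tested. Fold changes are on the log2(value + 1) scale. edgeR 4.0.16 and DESeq2 1.42.0 were run on the recovered reads as alternatives, beside other pseudocounts, filters and scalings and each library left out. The script was tested on simulated data. Positions and exonic lengths are those of GENCODE M21 on GRCm38. The regulators and lists were chosen with earlier results of these data known, so their calls are not independent support for earlier ones. Genes named are the 10 regulators, *S100a4*, from each list the most abundant gene and those with the highest and lowest fold change, up to 6 more of the other regulators that passed, and the 10 nearest in profile, of which 1 has no name. Some genes that this rule selects are not reported here. Other genes named were chosen after their values were seen.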

Additional observations from a re-analysis of the deposited data

How the results depend on the processing

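Over 169 alternatives run for the 10 regulators (16 or 17 each), none reversed, 158 kept the call and 11 lost it. With limma without the variance trend 5 of 10 passed (*Otx2*, *Crx*, *Rorb*, *Esrrb* and *Rax* lost the call), with limma's treat test against 2-fold 7 (*Otx2*, *Nr2e3* and *Rorb* lost it), and with each library left out 8 to 10, where the group left with 1 library is assumed to vary like the other. The cause was not tested. edgeR and DESeq2 each called all 10. At a mean value of at least 50, 9 were tested, without *Otx2*, and all passed. The median log2 fold change of the regulators, 2.02, was 2.04 and 1.90 with pseudocounts of 0.5 and 5, 2.03 at a mean value of at least 50, 2.05 with equal totals, 1.84 with quantile normalization, 2.01 with edgeR and 2.02 with DESeq2 (2.015), and 1.84 to 2.05 with each library left out. No scaling moved the median of all genes by more than 0.1.

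The number of genes called, 550 over both directions, became 287 (281 higher) at a mean value of at least 50, where fewer genes were tested, 181 (174 higher) without the trend, 171 (168 higher) with treat, 1028 (831 higher, 197 lower) with no fold threshold, and 172 to 559 with each library left out. The 12 other retinal regulators became 6, 2 and 2 in the first 3 of these, and 1 to 11 with each library left out. Rod genes that passed, 22, were 20 to 23 with each library left out, and over the other alternatives from 16 without the trend to 24 with no fold threshold. The number of regulators that differed from the rod median was 0 to 1 with each library left out. The log2 difference between regulators and rod genes, 0.04, turned to -0.021 with a pseudocount of 5, -0.059 with medians and -0.035 without WT replicate 2, and ran from -0.035 to 0.12 with each library left out.

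Over 59 single genes, the regulators included, and 992 alternatives, 914 kept their side of the threshold, 67 lost a call, 4 gained one and 7 changed sign: *Cngb3* was at -0.23 with quantile normalization, -0.094 without S100A4-/- replicate 1 and -0.20 without WT replicate 2 (-0.20 to 0.523 with each library left out), *Cryaa* at 0.010 without S100A4-/- replicate 1 (-0.143 to 0.010), *Dkk3* at -0.014 and *Sox2* at 0.000163 with quantile normalization, and *Sox1* at -0.0064 without WT replicate 2 (-0.0064 to 0.0353). Replicate numbers are shared by the groups but not said to pair libraries, and deviations of libraries with the same number correlated at 0.0119 over all genes tested. With the replicate number as a block 10 regulators passed, and of the genes called 576 were higher, against 539. Reads limit the precision most for *Otx2* and *Six6*, with 14 to 22 reads in WT.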
